A study of Homo sapiens with 6 samples.

Results

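The genes described here are those of extracellular adenosine signalling in MIA PaCa-2 cells, a human pancreatic cancer cell line. They comprised the receptors ADORA1, ADORA2A, ADORA2B and ADORA3, the producing enzymes ENTPD1 and NT5E, the clearing enzymes ADA and ADK, and the transporters SLC29A1 and SLC29A2, which were 10 of 35993 genes in the table. The genes were picked by symbol, but they were selected on read counts of the same 3 untreated and 3 treated libraries described below. Their own differences between the groups are therefore descriptions, printed without p-values, and counts of calls among them support nothing.

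RNA was sequenced from untreated cells and from cells given 4 µM rhCYGB for 48 h, with 3 libraries per group. rhCYGB is recombinant human cytoglobin, a globin protein, made in E. coli with a histidine tag, and both groups were kept in DMEM with 1% FBS. Whether the libraries of a group came from separate cultures is not stated in the sources used here, so p-values measure only the spread between these libraries. Counts on genes summed to between 34838399 and 42271299 per library.

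Adenosine outside the cell is formed from released ATP, which ENTPD1 (CD39) hydrolyses to AMP and NT5E (CD73) then converts to adenosine. ADORA1 and ADORA3 couple to inhibitory G proteins and lower cyclic AMP, whereas ADORA2A and ADORA2B couple to stimulatory G proteins and raise it. Equilibrative transporters carry adenosine across the plasma membrane. Inside the cell, ADK phosphorylates adenosine to AMP and ADA deaminates it to inosine. In tumors the pathway is best known for damping immune cells.

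The ADORA2A result turns on junctions into a shared exon at chr22:24433131-24433736 of GRCh38. The last 15 bases of the exon before it are in capitals and the first 15 bases of the shared exon are in lower case. Those of 1 ADORA2A transcript and of the read-through transcript are shown, to let the bases that tell them apart be seen, as read from GENCODE models on the plus strand.
ADORA2A-213 (exon 2, chr22:24432621-24432726): ATGGATAGTGCTGGGgtgcctcaggaaccc
SPECC1L-ADORA2A-201 (exon 18, chr22:24414534-24414744): GCTGCCCCACAGCGTgtgcctcaggaaccc
These transcripts differ on the left of the junction and are identical on the right.

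The promoters shown next are those of ADORA1, a receptor gene with 1 start site and a large difference between the groups, and of SLC29A1 and ADK, whose counts were divided between start sites. Each covers 250 bases before to 50 bases after a start (RefSeq, GRCh38.p14, plus strand), with GC boxes (GGGCGG, or CCGCCC on the other strand) in capitals.
ADORA1 (chr1:203127476-203127775): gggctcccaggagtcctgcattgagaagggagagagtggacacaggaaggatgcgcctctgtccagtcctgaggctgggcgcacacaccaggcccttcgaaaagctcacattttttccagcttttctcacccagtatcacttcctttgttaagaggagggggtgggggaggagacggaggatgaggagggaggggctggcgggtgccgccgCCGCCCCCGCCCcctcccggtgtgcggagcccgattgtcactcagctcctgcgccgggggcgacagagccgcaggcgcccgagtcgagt
SLC29A1 upstream start (chr6:44219365-44219664): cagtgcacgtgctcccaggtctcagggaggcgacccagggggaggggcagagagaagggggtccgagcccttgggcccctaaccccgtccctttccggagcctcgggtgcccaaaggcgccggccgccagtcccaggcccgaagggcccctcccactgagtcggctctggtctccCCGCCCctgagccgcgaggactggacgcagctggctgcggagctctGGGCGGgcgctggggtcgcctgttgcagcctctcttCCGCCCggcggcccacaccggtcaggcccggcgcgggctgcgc
SLC29A1 downstream start (chr6:44223345-44223644): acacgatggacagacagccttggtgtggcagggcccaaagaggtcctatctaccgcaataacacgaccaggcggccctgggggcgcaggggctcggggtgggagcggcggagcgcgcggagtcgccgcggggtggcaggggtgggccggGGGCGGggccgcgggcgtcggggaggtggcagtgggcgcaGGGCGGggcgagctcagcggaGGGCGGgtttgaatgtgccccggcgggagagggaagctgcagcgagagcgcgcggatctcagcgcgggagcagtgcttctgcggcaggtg
ADK upstream start (chr10:74150971-74151270): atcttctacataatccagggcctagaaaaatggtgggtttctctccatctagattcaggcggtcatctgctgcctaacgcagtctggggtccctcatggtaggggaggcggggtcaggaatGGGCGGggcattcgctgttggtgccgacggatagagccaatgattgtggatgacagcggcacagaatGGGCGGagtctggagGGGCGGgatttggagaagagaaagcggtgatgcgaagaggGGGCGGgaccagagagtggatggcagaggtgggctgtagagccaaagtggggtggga
ADK downstream start (chr10:74176513-74176812): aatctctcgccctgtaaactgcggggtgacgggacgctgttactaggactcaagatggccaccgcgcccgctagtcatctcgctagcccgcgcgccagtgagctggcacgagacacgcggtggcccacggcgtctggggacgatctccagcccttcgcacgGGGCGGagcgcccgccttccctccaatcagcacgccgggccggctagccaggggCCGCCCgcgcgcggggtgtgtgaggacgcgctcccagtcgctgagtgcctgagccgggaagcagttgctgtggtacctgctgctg
The ADORA1 promoter held 2 GC boxes, both SLC29A1 promoters held 3, and the ADK promoters held 4 upstream and 2 downstream. A GC box was present in 45.0% of all 35116 promoters of the RefSeq table. None of the 5 held TATAAA (11.5% of all promoters), the cAMP response element TGACGTCA (1.85%) or the ATF4 element core TGATGNAA (3.62%), and only the ADK promoters held CCAAT (34.6%), with both strands searched in each case. Promoters were matched for 8 of the 10 genes, and ADORA2A and SLC29A2 were without one.

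The cells were first checked against defining markers. Levels are given in FPKM (fragments scaled to transcript length and to mapped reads). Of the epithelial list, 5 of 6 genes had counts, but only 3 reached a mean of 1 FPKM, namely KRT8, KRT18 and KRT19. The summed level, nearly all on these 3, was 2270 to 2374 FPKM in untreated and 1597 to 1715 FPKM in rhCYGB libraries. KRT7 was at 0.312 to 0.531 FPKM, the junction gene CDH1 had 2 counts in untreated library 1 alone, and EPCAM was at 0. VIM, a mesenchymal filament gene known to be high in this line, lay at 3457 to 3483 and 4385 to 4681 FPKM. Some marker genes of other cell types had counts, and the summed levels of the leukocyte, endothelial and fibroblast or stellate lists were lower with rhCYGB. Of the leukocyte list 2 of 5 had counts, at 2.79 to 3.00 FPKM summed in untreated and 0.0787 to 0.218 in rhCYGB libraries, with PTPRC and CD3E at 0. Of the endothelial list 2 of 4 had counts, nearly all on CDH5, at 25.2 to 27.8 and 2.16 to 2.72 FPKM, with PECAM1 and KDR at 0. Of the fibroblast or stellate list 3 of 5 had counts, nearly all on COL1A2, at 25.4 to 27.7 and 1.02 to 1.33 FPKM, with DCN and LUM at 0. Of the acinar list only AMY2A had counts, in 1 library. The part of these genes in the results below was not tested, and fewer cells of a type and less RNA per cell cannot be told apart in bulk RNA.

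In untreated cells, the adenosine-producing enzyme NT5E was the most abundant of the 10 genes per length, at 75.4 ± 1.66 FPKM (SD, n = 3). It was followed by SLC29A1 at 38.2 ± 0.734, ADK at 21.4 ± 0.277, ADORA2B at 11.4 ± 0.410 and ADA at 9.44 ± 0.371 FPKM. ADORA1 at 8.17 ± 0.376, SLC29A2 at 6.90 ± 0.397 and ADORA2A at 3.86 ± 0.249 FPKM came next. ENTPD1, which makes the substrate of NT5E, was at 0.0324, 0.0303 and 0 FPKM, and ADORA3 was at 0. In this order 8 of 9 neighbours did not overlap between their libraries, and ENTPD1 and ADORA3 did. With rhCYGB the order was NT5E (58.4 ± 1.71 FPKM), SLC29A1 (24.4 ± 2.05), ADK (20.8 ± 0.384), SLC29A2 (19.2 ± 0.542), ADORA2B (11.3 ± 0.400), ADA (10.2 ± 0.475), ADORA1 (0.421 ± 0.0792), ENTPD1, ADORA2A (0.0170 ± 0.0104) and ADORA3. SLC29A2 thus stood above both ADORA2B and ADA, where it had been below them in untreated cells. ADORA1 was below both in either group. Again 8 of 9 neighbours did not overlap, the exception being ENTPD1 and ADORA2A.

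Between the groups, ADORA1 and ADORA2A showed the largest differences and SLC29A2 the largest in the other direction. The ADORA2A difference holds for its symbol alone, and is described below together with its read-through gene. ADORA2B, NT5E, ADA and ADK moved little. Differences are given from counts scaled to library size with TMM factors (CPM) as log2 fold changes of rhCYGB over untreated cells from edgeR. Of the 9 genes that had enough counts to be fitted, 4 were called higher and 4 were called lower (adjusted p under 0.05). Of all 14728 genes fitted, 39% were called higher and 38.6% lower. With a fold change of 2 or more as well, 1 was higher and 2 were lower, against 12.4% higher and 14.7% lower of all genes. Nothing can be read from these counts, since the contrast is the one on which the genes were chosen. The median log2 fold change was -0.06 over the 9 genes and -0.0046 over all genes.

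**Figure D1:**
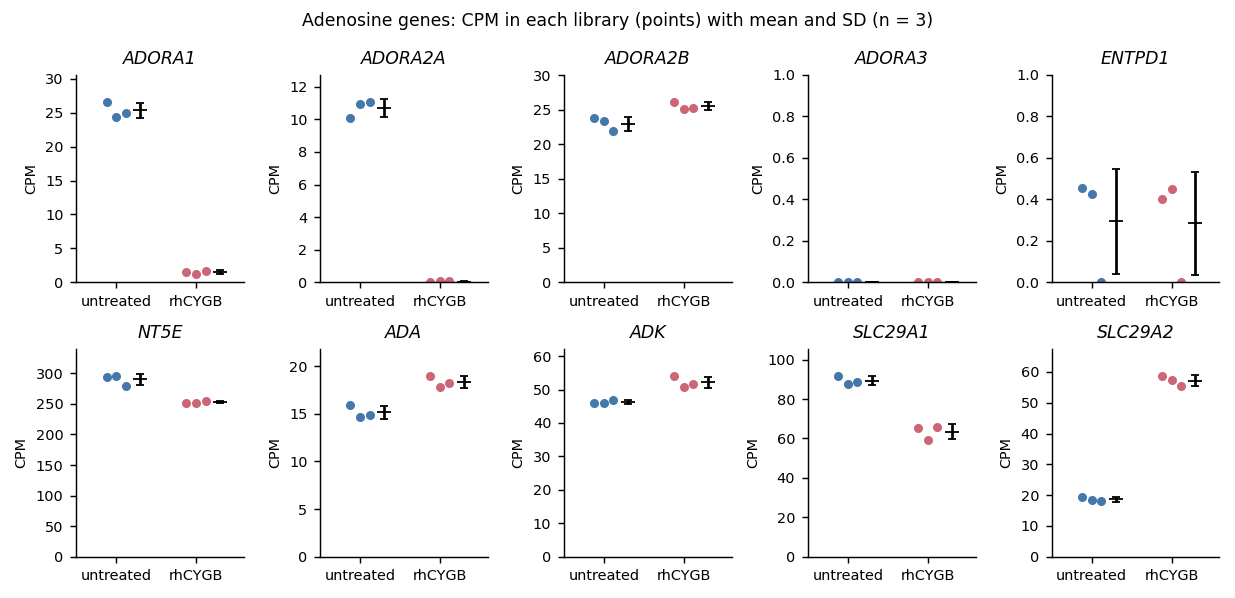
CPM of the 10 adenosine genes on linear vertical axes from 0, with a point for each untreated (blue) and rhCYGB (red) library and the mean ± SD of each group (n = 3) beside the points. ADORA1 and ADORA2A (counted without SPECC1L-ADORA2A) lay near 0 with rhCYGB, and SLC29A2 went from 18.6 to 57.1 CPM on average. The groups overlapped for ENTPD1 and ADORA3 alone. The share of all genes without overlap is not given here, and 77.6% of the 14728 genes fitted were called (edgeR, adjusted p under 0.05). Nothing about these genes is read from the separation.

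Among the receptors, ADORA1, a high-affinity inhibitory receptor, was lower in every rhCYGB library. Its read counts were 991, 1091 and 1019 in untreated libraries and 59, 40 and 63 in rhCYGB libraries. This corresponded to 25.3 ± 1.16 and 1.50 ± 0.265 CPM, with no overlap and a log2 fold change of -4.07 (SE 0.113). Pooled over each group the level was 16.7-fold lower, with a 95% counting interval of 14.3 to 19.7 that covers counting error only. All 4 of its transcripts share the start at base 203096854 of chromosome 1 in the deposited table, so its counts give no view of a change of start site.

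ADORA2B, the low-affinity stimulatory receptor, had the most counts of the receptors over all libraries. The counts were 888, 1045 and 892 untreated and 973, 838 and 932 with rhCYGB. In CPM the libraries lay at 23.0 ± 1.02 and 25.6 ± 0.554 without overlap, and the log2 fold change was 0.15 (SE 0.0588), a direction that turned to -0.01 with total counts as library size. That scaling shifted the median of all genes to -0.17, so ADORA2B lay above the median gene under either scaling. ADORA3, the other inhibitory receptor, had 0 counts in every library, and so did TMIGD3, which overlaps it. A count of 0 allows a level of up to 3 counts, or 0.0669 to 0.0902 CPM depending on the library. Of the 14728 genes fitted, the 3 whose log2 CPM ran most like ADORA2B were EBF3 (r = 0.997), EMP3 (r = 0.996) and NINJ1 (r = 0.995). These r values are over 6 libraries, include the difference between the groups and are the highest of all genes searched. ADORA2B spanned only 0.26 on the log2 scale, and shared regulation was not tested.

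ADORA2A, the high-affinity stimulatory receptor best known from immune cells and the brain, had 376, 491 and 452 counts in untreated libraries. In rhCYGB libraries it had 1, 2 and 3 counts. The means were 10.7 ± 0.539 and 0.0561 ± 0.0274 CPM, with a log2 fold change of -7.50 (SE 0.234). The ratio of pooled counts was 0.00521, with a counting interval of 0.00191 to 0.0114. Taken by its symbol alone, ADORA2A was thus the member with the largest difference between the groups.

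The deposited position of ADORA2A (chromosome 22, 24819565 to 24838328) lies wholly within that of SPECC1L-ADORA2A, a read-through gene that joins the upstream neighbour SPECC1L to ADORA2A (24666785 to 24838328). SPECC1L encodes a protein of the cytoskeleton. The read-through gene had 100, 0 and 0 counts in untreated libraries and 411, 361 and 421 in rhCYGB libraries. It was high where ADORA2A was low, at 0.895 ± 1.55 CPM untreated and 11.1 ± 0.288 CPM with rhCYGB, with a log2 fold change of 3.72 (SE 0.683). Its share of the counts on both genes was 21.0%, 0% and 0% untreated and 99.8%, 99.4% and 99.3% with rhCYGB.

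The sum of ADORA2A and SPECC1L-ADORA2A was 476, 491 and 452 counts in untreated and 412, 363 and 424 in rhCYGB libraries. Scaled to library size this was 12.8, 10.96 and 11.1 CPM against 11.1, 10.9 and 11.5 CPM. The groups overlapped, with means of 11.6 ± 1.02 and 11.2 ± 0.303 CPM, and the log2 fold change of the sum was -0.05 (SE 0.0901), within the spread of the libraries. Per length the result was different. The summed FPKM of both genes was 4.11, 3.71 and 4.14 in untreated and 1.47, 1.42 and 1.56 in rhCYGB libraries, or 3.99 ± 0.239 and 1.49 ± 0.0683, with no overlap. FPKM divides counts by the length of the transcript to which they were assigned, and the read-through transcript is the longer one. The count sum includes reads over the upstream SPECC1L exons of the read-through gene, and how many of its counts lay there is not given by the tables. Whether RNA over the ADORA2A exons differed therefore cannot be told apart from the assignment of reads.

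**Figure D2:**
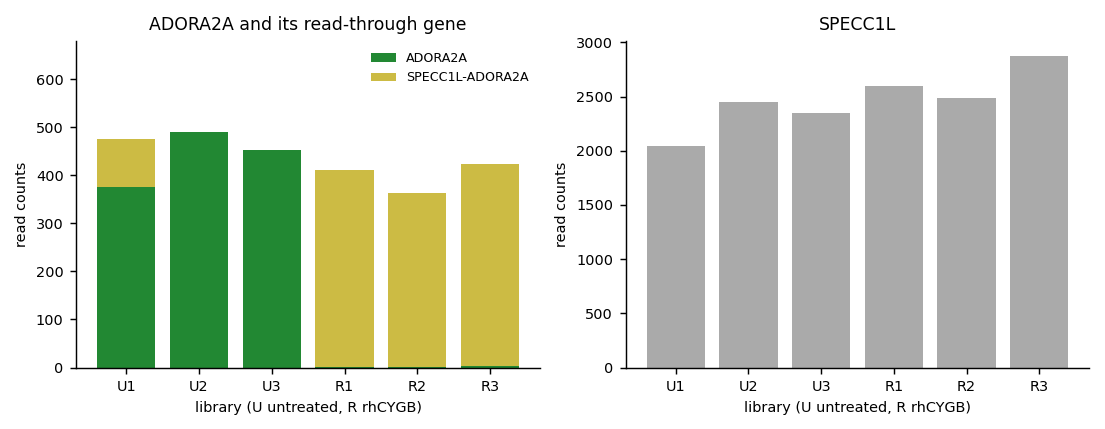
Read counts (linear axis) per library, U for untreated and R for rhCYGB, of ADORA2A (green) stacked with the read-through gene SPECC1L-ADORA2A (yellow), and of the neighbour SPECC1L (grey). The stacked height stayed between 363 and 491 counts, while the yellow portion made up at least 99.3% of it in every rhCYGB library and 21.0% or less in untreated ones.

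How far reads can tell these genes apart was measured on the GENCODE models. The read-through transcript has 6204 bases in 20 exons, of which 3702 lie in SPECC1L exons, 2380 are shared with ADORA2A-201 and 122 are in neither. ADORA2A-201 has 2569 bases and shares 92.6% of them with the read-through transcript, which leaves 189 bases of its own. ADORA2A-213 has 2736 bases, shares 87.0% and has 356 of its own. All 1236 coding bases of the receptor lie in the shared portion. Only reads over the left side of junctions such as those printed above, or over exons outside the shared portion, separate the read-through transcript from ADORA2A. Of its bases outside that portion, 3702 lie in SPECC1L exons, where reads can also belong to SPECC1L. Which gene the reads of rhCYGB cells came from cannot be told apart in count tables.

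SPECC1L itself had 2044, 2453 and 2347 counts untreated and 2598, 2486 and 2872 with rhCYGB. This was 55.7 ± 1.59 against 74.2 ± 4.01 CPM, with no overlap (log2 fold change 0.41, SE 0.0491). These counts also rest on how reads over exons shared with the read-through gene were divided. SPECC1L and SPECC1L-ADORA2A together had 2144, 2453 and 2347 counts untreated and 3009, 2847 and 3293 with rhCYGB. The level of SPECC1L alone in FPKM, 7.74 ± 0.284 and 9.20 ± 0.589, was above the 1.47 ± 0.0689 FPKM of the read-through gene in rhCYGB cells. ADORA2A-AS1, an antisense gene at the same place, had 0 counts in every library.

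The transcripts to which ADORA2A counts were assigned also differed between libraries of the same group. In untreated libraries 1 and 3, 99.2% and 98.7% of the counts were on transcripts that start at base 24823567, chiefly NM_001278499 with 369 and 434 counts. In untreated library 2 all 491 counts were on NM_001278497, which starts at base 24828087. The few rhCYGB counts fell on different transcripts in each library. No transcript share of ADORA2A was therefore shared by the 3 untreated libraries, and a mean over them rests on which library is left out, at 49.3% to 98.9% for the start at 24823567.

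Of the producing enzymes, ENTPD1 was barely detected, with 17, 19 and 0 counts untreated and 15, 15 and 0 with rhCYGB. The groups overlapped, the log2 fold change was -0.06 (SE 0.868), and the ratio of pooled counts (30 over 36, scaled to library size) was 0.954 with a counting interval of 0.568 to 1.59. The interval spans 1, so a difference was not detectable with so few counts. All counts were on NM_001098175, and replicate 3 of both groups was at 0. PTPRC, the leukocyte gene named above, was at 0 throughout, but 2 of the 5 leukocyte genes had counts. Their list summed to 2.79 to 3.00 FPKM in untreated libraries, above ENTPD1. The cell source of the ENTPD1 counts was not tested. ENTPD1-AS1, which overlaps the gene, had 23, 24 and 35 counts untreated and 17, 14 and 22 with rhCYGB.

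NT5E, the enzyme that releases adenosine from AMP, had 10948, 13249 and 11420 counts untreated and 9346, 8382 and 9379 with rhCYGB. Its level was 289.8 ± 8.55 and 252.6 ± 1.54 CPM without overlap (log2 fold change -0.20, SE 0.0358). The transcript NM_002526 held most counts in every library, with 90.5%, 95.3% and 94.8% untreated and 88.9%, 86.0% and 92.2% with rhCYGB, and these shares overlapped.

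Both clearing enzymes were slightly higher with rhCYGB. ADA had 593, 657 and 608 counts untreated and 705, 593 and 672 with rhCYGB. Its level was 15.2 ± 0.666 and 18.3 ± 0.585 CPM without overlap, with a log2 fold change of 0.28 (SE 0.0698) that shrank to 0.11 with total counts as library size. ADK had 1711, 2063 and 1911 counts untreated and 2008, 1689 and 1899 with rhCYGB. Its level was 46.3 ± 0.510 and 52.1 ± 1.72 CPM without overlap. The log2 fold change of ADK was 0.17 (SE 0.0466), but 0.01 with total counts as library size and -0.04 in limma on log2(FPKM + 1).

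The total of ADK hid a larger difference between its start sites. Adenosine kinase is known in a longer, nuclear form and a shorter, cytoplasmic form, which arise from different starts. Transcripts from the upstream start (bases 75910943 to 75910979 of chromosome 10, NM_006721 among them) had 1334, 1581 and 1439 counts untreated and 806, 1120 and 840 with rhCYGB. Transcripts from the downstream start (bases 75936247 to 75936521, NM_001123 among them) had 377, 482 and 472 counts untreated and 1202, 569 and 1059 with rhCYGB. The upstream share was 78.0%, 76.6% and 75.3% untreated and 40.1%, 66.3% and 44.2% with rhCYGB. The groups did not overlap, at 76.6 ± 1.33% and 50.2 ± 14.1%, but rhCYGB library 2 lay nearer to the untreated libraries than to its own group. The upstream promoter printed above has a GC content of 58.0% and the downstream one 69.3%.

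SLC29A1 (ENT1), the main equilibrative carrier of adenosine in most cells, had 3416, 3919 and 3616 counts untreated and 2424, 1962 and 2433 with rhCYGB. Its level was 89.3 ± 2.19 and 63.4 ± 3.86 CPM without overlap, a log2 fold change of -0.49 (SE 0.0487). The starts moved in opposite directions beneath this total. The upstream start, at base 44187352 of chromosome 6, had 427, 366 and 463 counts untreated and 1080, 808 and 1171 with rhCYGB. The downstream start, at base 44191332, had 2989, 3553 and 3153 counts untreated and 1344, 1154 and 1262 with rhCYGB. The upstream share was 12.5%, 9.34% and 12.8% untreated and 44.6%, 41.2% and 48.1% with rhCYGB. With means of 11.5 ± 1.92% and 44.6 ± 3.47% the libraries of each group lay close together and far from the other group. Shares from FPKM were 11.4 ± 1.99% and 43.7 ± 3.35%. The 3980 bases between these starts are the same in the deposited table and between the promoters printed above, and the 25542 bases between the ADK starts match likewise.

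**Figure D3:**
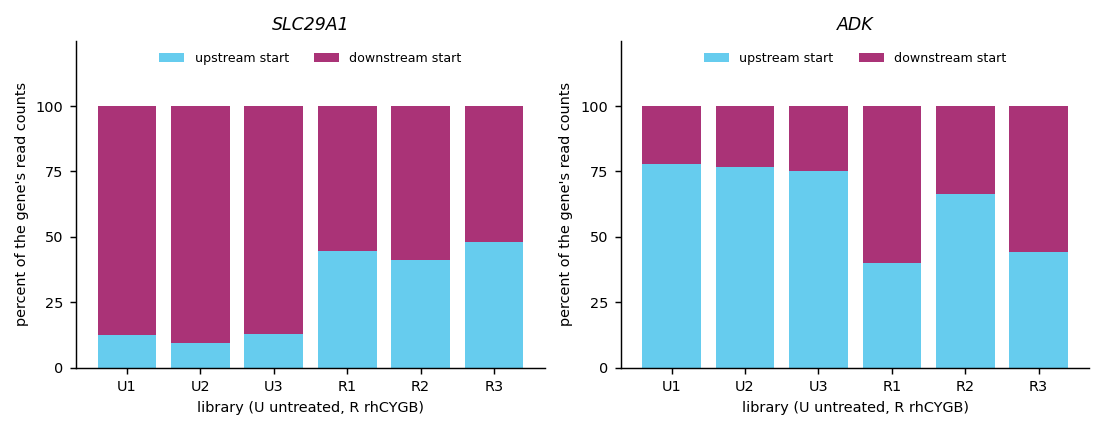
Percent of the read counts of SLC29A1 and ADK assigned to transcripts from the upstream (light blue) and downstream (purple) start in each library, U for untreated and R for rhCYGB. The upstream share of SLC29A1 rose from at most 12.8% to at least 41.2%, and that of ADK fell from at least 75.3% to 40.1%, 66.3% and 44.2%.

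These shares rest on how the authors' assembler divided reads between transcripts, which is an estimate. SLC29A2 shows how it can vary, since its transcript NM_001532 held 561 and 765 counts in untreated libraries 1 and 2 but 69 in untreated library 3, where NM_001300868 held 346 against 0 and 7.

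SLC29A2 (ENT2), the other equilibrative carrier, was the only one of the 10 genes that was higher by 2-fold or more. It had 723, 824 and 733 counts untreated and 2180, 1909 and 2038 with rhCYGB. Its level was 18.6 ± 0.738 and 57.1 ± 1.71 CPM, without overlap and with a log2 fold change of 1.62 (SE 0.0539). LOC102724064, which overlaps one end of it, had at most 14 counts. Per length, SLC29A2 and SLC29A1 were at 6.90 and 38.2 FPKM untreated and at 19.2 and 24.4 FPKM with rhCYGB. The transporters hence differed between the groups in opposite directions, and the log2 fold changes of the clearing and producing enzymes were smaller than those of either.

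**Figure D4:**
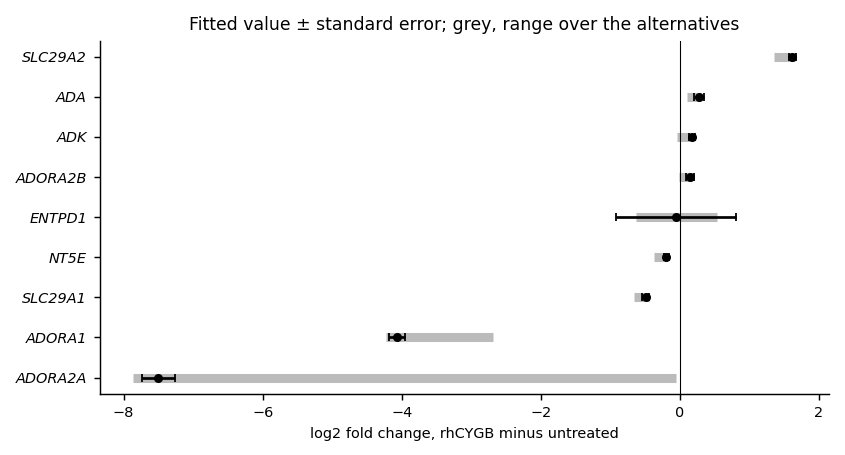
Log2 fold change, rhCYGB minus untreated, of the 9 fitted adenosine genes (points, with bars of ± 1 standard error) and the range over the other settings tried (grey). The grey bar of ADORA2A runs from -7.87 to -0.05, the latter being its value when counted together with SPECC1L-ADORA2A, while those of ADORA2B, ADK and ENTPD1 cross 0.

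The other genes of adenosine, nucleotide and cyclic AMP biology were taken from 8 lists of 92 genes in all, of which 66 had counts and 59 were tested. Tested with edgeR (quasi-likelihood, Benjamini-Hochberg over the 14728 genes), 20 were higher, 27 were lower and 12 were not called, beside 39% higher and 38.6% lower of all genes. At 2-fold, 3 were higher and 8 lower, beside 12.4% and 14.7%. Their median log2 fold change was -0.06.

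Genes of cyclic AMP signalling downstream of the receptors were called in both directions. So were all genes tested, with 39% higher and 38.6% lower, and the counts of each list stand beside these shares. PRKACA, the main catalytic subunit of protein kinase A, had 3294, 3904 and 3582 counts untreated and 998, 1002 and 1113 with rhCYGB, with no overlap. Its mean dropped from 87.8 ± 0.654 to 29.1 ± 1.90 CPM (log2 fold change -1.60, SE 0.0517, edgeR adjusted p = 4.29e-13). Of the 8 protein kinase A and EPAC genes, 5 fell, 1 rose (PRKAR1A, a regulatory subunit, log2 fold change 0.34) and 2 were not called, with a median of -0.54. Of 13 tested G protein alpha subunits and adenylyl cyclases, 5 rose and 6 fell. GNAI1, an inhibitory alpha subunit, rose by 1.17 on the log2 scale (SE 0.164, edgeR adjusted p = 1.01e-05) from a low level of 74, 84 and 95 counts to 165, 145 and 189. Its paralog GNAI2, which was far higher in CPM at 177.6 ± 2.51, had a log2 fold change of -0.88, and GNAS, the stimulatory alpha subunit, one of -0.25. Of 7 tested phosphodiesterases, which degrade cyclic AMP, 2 rose and 3 fell, and PDE4A fell by 1.33 (SE 0.233, edgeR adjusted p = 9.02e-05).

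P2 receptors sense ATP and other nucleotides rather than adenosine. Of the 6 tested, 5 fell, 0 rose and 1 was not called, beside 38.6% lower and 39% higher of all genes. The median log2 fold change of the 6 was -1.33. P2RX6, an ATP-gated channel subunit, had 167, 183 and 240 counts untreated and 49, 24 and 34 with rhCYGB (log2 fold change -2.27, SE 0.228, edgeR adjusted p = 2.35e-07). P2RY2, a receptor for ATP and UTP, had 86, 116 and 120 counts untreated and 30, 26 and 24 with rhCYGB (log2 fold change -1.80, SE 0.229, edgeR adjusted p = 3.29e-06). P2RY6, a receptor for UDP that was named after its values were seen, had 20, 18 and 40 counts untreated and 0 in every rhCYGB library. It was at least 22.7-fold lower, set against a floor of 3 counts over the group. These 3 receptors had at most 240 counts in any library.

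Of the 12 tested genes of intracellular nucleotidases and adenosylhomocysteine hydrolysis, 7 were higher and 2 lower, beside 39% and 38.6% of all genes. The median of the 12 was 0.26. The 2 lower genes were AHCY, which hydrolyses adenosylhomocysteine, and its relative AHCYL1, and neither is a nucleotidase. The 2 that rose by 2-fold act mainly on pyrimidine or deoxynucleotides and not on AMP. NT5C, a deoxyribonucleotidase that overlaps ARMC7 in the deposited positions, had 992, 1242 and 1089 counts untreated and 2772, 2314 and 2461 with rhCYGB (log2 fold change 1.38, SE 0.0533, edgeR adjusted p = 2.86e-12). NT5C3A, a pyrimidine nucleotidase, rose from 20.3 ± 1.00 to 41.0 ± 2.53 CPM (log2 fold change 1.01, SE 0.0620, edgeR adjusted p = 6.37e-10). AHCYL1, best known as a regulator of inositol trisphosphate receptors, fell from 121 ± 4.61 to 57.8 ± 1.68 CPM (log2 fold change -1.07, SE 0.0440, edgeR adjusted p = 6.09e-12).

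Of 7 tested genes of purine clearance beyond ADA and ADK, 2 were higher and 4 lower, beside 39% and 38.6% of all genes. XDH, which oxidises hypoxanthine to uric acid, had 200, 223 and 239 counts untreated and 73, 91 and 61 with rhCYGB (log2 fold change -1.35, SE 0.182, edgeR adjusted p = 6.36e-06). Of the genes of nucleotide release and hydrolysis outside the cell, 4 of 12 were tested, 2 higher and 2 lower. CD38, ENTPD2 and ENTPD3 were at 0 in every library. ENPP1 had 124, 145 and 111 counts untreated and 71, 65 and 76 with rhCYGB (log2 fold change -0.65, edgeR adjusted p = 0.0036). ENTPD8, named after its values were seen, had 42, 37 and 18 counts untreated and 0, 0 and 24 with rhCYGB (log2 fold change -1.83, edgeR adjusted p = 0.0487), so that its groups overlapped and rhCYGB library 3 held all the treated counts. It overlaps NOXA1. Of the other nucleoside transporters, 2 of 5 were tested and 1 was higher, with none past 2-fold.

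**Figure D5:**
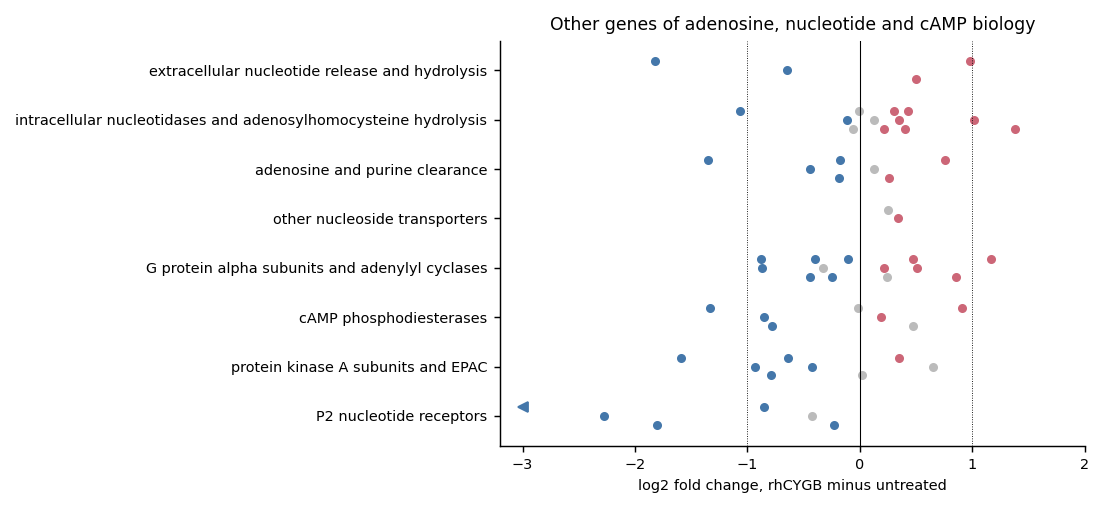
Log2 fold change, rhCYGB minus untreated, of the 59 tested genes of the 8 lists (1 point per gene; red and blue, called higher or lower by edgeR; grey, not called). Dotted lines mark 2-fold, and the triangle marks P2RY6, which lies beyond the axis. Of the P2 receptors, 5 of 6 lie below 0 in blue, beside 38.6% of all genes called lower.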

How the data were processed

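Libraries of RNA from untreated (3) and rhCYGB-treated (3) MIA PaCa-2 cells were grouped by their labels. Per the labels and the study's methods, libraries were made with a stranded mRNA kit and sequenced as paired ends, and the submitters' processing notes name FastQC 0.11.7, HISAT2 2.1.0 and StringTie 2.1.3b. The authors deposited read counts per gene and per transcript as whole numbers without normalization. The authors also deposited FPKM values, scaled to transcript length and depth, and TPM values, scaled to a common total. How reads shared by overlapping genes were divided is not given in the sources used here. A mouse build (mm10) is listed with the labels but the positions are human. The files name no build, so positions of transcripts and starts are given as deposited, and GRCh38 was used for sequences and exon models only.

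Counts were fitted with edgeR 4.0.16 in R 4.3.3 (filterByExpr, TMM, glmQLFit and glmQLFTest, 14728 genes, Benjamini-Hochberg adjustment). Depth was 34838399 to 42271299 counts, and a floor of 3 counts equals 0.0669 to 0.0902 CPM. Reads carry no molecular identifiers, so intervals and floors cover counting error only. Replicates differed by more than counting noise (chi-square over degrees of freedom 4.81 to 6.88). On simulated data, changes larger than 2-fold were planted in 200 genes above a minimum count, and a call also required 2-fold. There, edgeR called 200 of 200 changed and 3 of 14299 unchanged genes. Smaller changes and calls on adjusted p alone were not simulated. In the data themselves 77.6% of genes were called, a far larger portion than was changed in the simulation. Start sites within 1000 bases were joined. A marker gene and a sequence are not reported here.

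The genes, lists and marker genes were chosen with earlier results of these data known. Named were the 10 genes, genes overlapping them, at most 3 genes per list with the largest change past 2-fold and a mean of at least 1 CPM in the higher group, and the 3 genes most like the receptor with the most counts. AHCY, ENPP1, PRKAR1A, GNAI2 and GNAS were named after their values were seen. Alternatives were DESeq2 size factors, total counts, the Wald test of DESeq2 1.42.0, limma 3.58.1 on log2 FPKM with a pseudocount of 1 or 0.1, no low-count filter, at least 10 counts in every library, counts summed from transcripts, a replicate block, leaving out each library and, chosen after seeing the data, ADORA2A counted with its read-through gene.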

Additional observations from a re-analysis of the deposited data

How the results depend on the processing

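Total counts as library size moved the median of all genes to -0.17 and the share of 2-fold calls that were higher from 45.8% to 33.9%; limma on log2(FPKM + 0.1) moved the median to -0.15. Small differences turned with them: ADORA2B was -0.014 with total counts, -0.012 with limma on log2(FPKM + 1) and -0.012 on log2(FPKM + 0.1), and ADK was -0.041 and -0.043 in these limma fits. ENTPD1, with counts in 4 libraries, became 0.37, 0.35 and 0.54 without untreated replicate 1, untreated replicate 2 and rhCYGB replicate 3, in a range of -0.63 to 0.54 over the libraries left out. The number of adenosine genes called higher fell from 4 to 1 with total counts and both limma fits, and of those lower by 2-fold from 2 to 1 with at least 10 counts in every library, which removes ADORA2A, and with ADORA2A counted together with its read-through gene. Of the listed genes, 13 instead of 20 were higher and 1 instead of 3 by 2-fold in both limma fits, and 13 instead of 8 were lower by 2-fold with total counts and 4 with limma on log2(FPKM + 1). That scale understates low genes, giving ADORA1 -2.69, GNAI1 0.22, PDE4A -0.36, XDH -0.53, P2RX6 -1.03 and P2RY2 -0.26, all in their first direction. Leaving out each library gave 3 to 4 adenosine genes higher, 4 lower, 1 higher and 2 lower by 2-fold. For the listed genes the same gave 20 to 21 higher, 24 to 27 lower, 2 to 4 higher and 7 to 8 lower by 2-fold. Untreated replicate 3 and rhCYGB replicate 1 each decided the call of ADORA2B, at 0.12 and 0.14 without them. Same-numbered libraries of the groups deviated together with correlations of -0.048, 0.0072 and 0.0055, so the numbers did not pair them, and the replicate block left 4 adenosine genes higher and 4 lower and 20 listed genes higher and 26 lower. Of the remaining values of single genes, 267 kept their direction and side of the threshold, and 9 kept their direction but lost the call. Apart from where stated, the cause was not tested. Low counts limit ENTPD1 and the rhCYGB values of ADORA2A taken by its symbol alone. The latter cannot be told apart from how reads were divided between ADORA2A and SPECC1L-ADORA2A. Leaving out an untreated library moves the mean share of ADORA2A counts from the start at 24823567 between 49.3% and 98.9%.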
